A study of Mus musculus with 30 samples.

Results

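The small ribosomal subunit (40S) genes were taken as every gene symbol in the table that begins with Rps and a digit, together with Rpsa. Symbols with a hyphen, the Rps6k kinases and Rps19bp1 were left out. This gave 34 of the 23993 genes. By their place in the subunit, 14 encode proteins of the head and 17 encode proteins of the body and platform. The remaining 3 are Rps27l, a paralogue of Rps27, Rps27rt, an intronless copy of Rps27, and Rps4l, annotated as a transcribed pseudogene. RNA-seq libraries came from tdTomato-positive cells sorted by flow cytometry from the medial prefrontal cortex (mPFC) of C57BL/6 mice. All animals carried 1 Cre driver, Sst-Cre or Pvalb-Cre, with the Cre-dependent Ai9 tdTomato reporter, a design that labels cells in which the driver was active at any time up to collection. The groups are called Sst and Pvalb after the labels, and the markers given below go against these names in part. The groups were nonstressed female Sst mice (7 libraries), nonstressed male Sst mice (7), male Sst mice after 14 days of chronic unpredictable stress (CUS; 3) and nonstressed male Pvalb mice (7). A further 6 labelled samples, all from females, were not analysed here.

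The 40S subunit reads the mRNA. It is built from 1 ribosomal RNA and a fixed set of proteins, binds the initiator tRNA together with initiation factor eIF2, and scans to the start codon before it joins the large (60S) subunit. The head and the body enclose the mRNA channel and the decoding site, and the platform holds the exit side. Transcripts of ribosomal protein genes usually start with a terminal oligopyrimidine (TOP) tract, a C followed by a run of pyrimidines, through which mTOR signalling sets their translation. Their genes are compact, strongly transcribed, often host small nucleolar RNA (snoRNA) genes in their introns, and have left many processed copies in mammalian genomes.

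Several properties of the libraries bear on every value below. Among the male Sst controls, 4 titles are short (SST0-M, SST1-M, SST3-M, SST4-M), as in the female and Pvalb libraries, and 3 are long (SS04031R, SST040241L, SST04241LL), as in all CUS libraries. The labels do not say what the titles stand for. In the 6 long-titled libraries 53.5% to 75.7% of the total FPKM lay on snoRNA and Cajal body RNA (scaRNA) genes, against 1.87% to 8.29% in the 18 short-titled ones, while the upper quartile of FPKM ranged from 9.50 to 10.7 over all 24. The libraries SST1-M and SST0-M hardly differed (SD of their log2 ratio 0.0212, against 0.267 for the next closest pair), as were PV0-M and PV2-M (0.0170 against 0.225). Each pair was averaged and counted as 1 sample, which left 22 samples. PV1-M, PV4-M and PV5-M are labelled male but had Xist at 300.2 to 333 FPKM. The 10 interneuron markers summed to 34.1 to 296 FPKM per library and the 10 microglia markers to 2444 to 7986, and the GABA synthesis gene Gad1 did not exceed 2.05 FPKM in any library. Sst itself was at 12.3 to 30.5 FPKM in the Pvalb libraries, at 4.18 to 49.3 in the female Sst libraries, at 0 to 6.02 in the male Sst controls and at 1.71 to 5.54 in the CUS libraries, so every Pvalb library lay above every male Sst library. Pvalb was at 0.882 to 5.07 FPKM in the Pvalb libraries and 0 to 1.93 in the Sst libraries. Nothing states that the libraries of a group came from separate animals, so p-values measure the spread between these samples. In sorted cells a lower FPKM of a gene cannot be told apart from fewer cells of the type that expresses it.

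The sequences of the members limit what their rows can distinguish. Rps27 (chr3:90212667-90213648, GRCm38) and Rps27rt (chr9:114982366-114982739, GRCm38, overlapping Osbpl10) are shown because reads cannot tell their coding sequences apart. Rps27 has 4 exons and Rps27rt has 1, the coding sequences of both are 255 bases long and identical, and their annotated transcripts of 345 and 344 bases (GENCODE M1) share an unbroken run of 341 bases. The coding sequence of both genes is printed in lower case, with no base in capitals since none differs.
Rps27 and Rps27rt: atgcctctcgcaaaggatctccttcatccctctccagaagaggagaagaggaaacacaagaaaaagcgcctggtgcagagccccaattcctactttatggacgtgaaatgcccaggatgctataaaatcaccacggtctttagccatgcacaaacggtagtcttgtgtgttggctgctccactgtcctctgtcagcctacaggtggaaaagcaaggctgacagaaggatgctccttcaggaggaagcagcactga
All 181 windows of 75 bases, the length of the reads, in this sequence are shared between the genes. Rps27l, in contrast, differs from Rps27 at 61 of the 255 positions (76.1% identity) and shares 0 of the 181 windows. The pattern extends to most members. In the NCBIM37 assembly, 32 of the 34 coding sequences had at least 1 window of 75 bases that occurs exactly elsewhere in the genome, in 25 of them over 50% of the windows did (median over members 78.8%), and 30 members had at least 1 further copy with 95% identity over 90% of the coding sequence. Rps2 had 25 such copies and Rps12 had 22. Rps3 was among those with no window in common with another place. For the others, the FPKM of a member can therefore depend on how reads that match several places were assigned, which is not given in the sources used here.

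The annotated starts of 25 members were found in the RefSeq promoter set (GRCm38.p6), and 9 members had no entry. A start with a C followed by at least 4 C or T bases was present in 7 of the 25 (28%), against 3.01% of 27025 genes in the set. The letters CCGGAA, on either strand, were present within 250 bases before to 50 bases after the start in 15 of the 25 (60%), against 16.7% of all genes. In Rps27 and Rps27rt these letters overlap the pyrimidine run. The 7 pyrimidine starts are printed from 15 bases before to 15 bases from the start on, with the transcribed bases in capitals.
Rps6 (chr4:86857353-86857382, minus strand): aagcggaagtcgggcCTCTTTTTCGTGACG
Rps10 (chr17:27635230-27635259, minus strand): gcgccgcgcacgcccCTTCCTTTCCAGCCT
Rps15a (chr7:118116133-118116162, minus strand): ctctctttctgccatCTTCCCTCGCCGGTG
Rps18 (chr17:33955651-33955680, minus strand): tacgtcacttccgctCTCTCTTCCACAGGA
Rps21 (chr2:180257364-180257393, plus strand): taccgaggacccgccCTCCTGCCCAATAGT
Rps27 (chr3:90213634-90213663, minus strand): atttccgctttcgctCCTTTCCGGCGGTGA
Rps27rt (chr9:114982725-114982754, minus strand): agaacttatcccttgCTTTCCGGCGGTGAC
The capitals of the last 2 lines run in parallel 1 base out of step, while the bases before the start of the copy differ from those of Rps27. A match of these letters is a description of the window and not of a factor bound there.

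The 34 members lay on 14 chromosomes, 9 of them on chromosome 7. Levels are given in FPKM, a value scaled per length of transcript and per depth. The order of the members by level also depends on the transcript length used and on how reads that match several places were assigned. The median of the members' mean levels was 146 FPKM, 25 members averaged over 100 FPKM, and 32 exceeded 0.4 FPKM in each of the 24 libraries. Rps29, a small zinc-binding protein of the head, had the highest level, at 611 FPKM over the 22 samples with a range of 102 to 2170 over libraries. Rps15 (head) followed at 413 FPKM (121 to 1066) and Rps23, next to the decoding site, at 317 FPKM (191 to 568.4). The lowest levels were those of Rps4l at 4.21 FPKM, listed at 0 in 3 libraries, Rps15a (body) at 15.9 FPKM and Rps27l at 16.1 FPKM. Rps4x, the X-linked protein to which Rps4l is related, was at 187 FPKM (115 to 297). Rps27a, which is made as a fusion with ubiquitin, was at 112 FPKM (54.3 to 388). Members differed in how far they varied. The SD over the 22 samples on the log2(FPKM + 1) scale was 0.31 for Rps2, the smallest, 0.64 at the median of the members and 3.59 for Rps27, the largest.

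**Figure D1:**
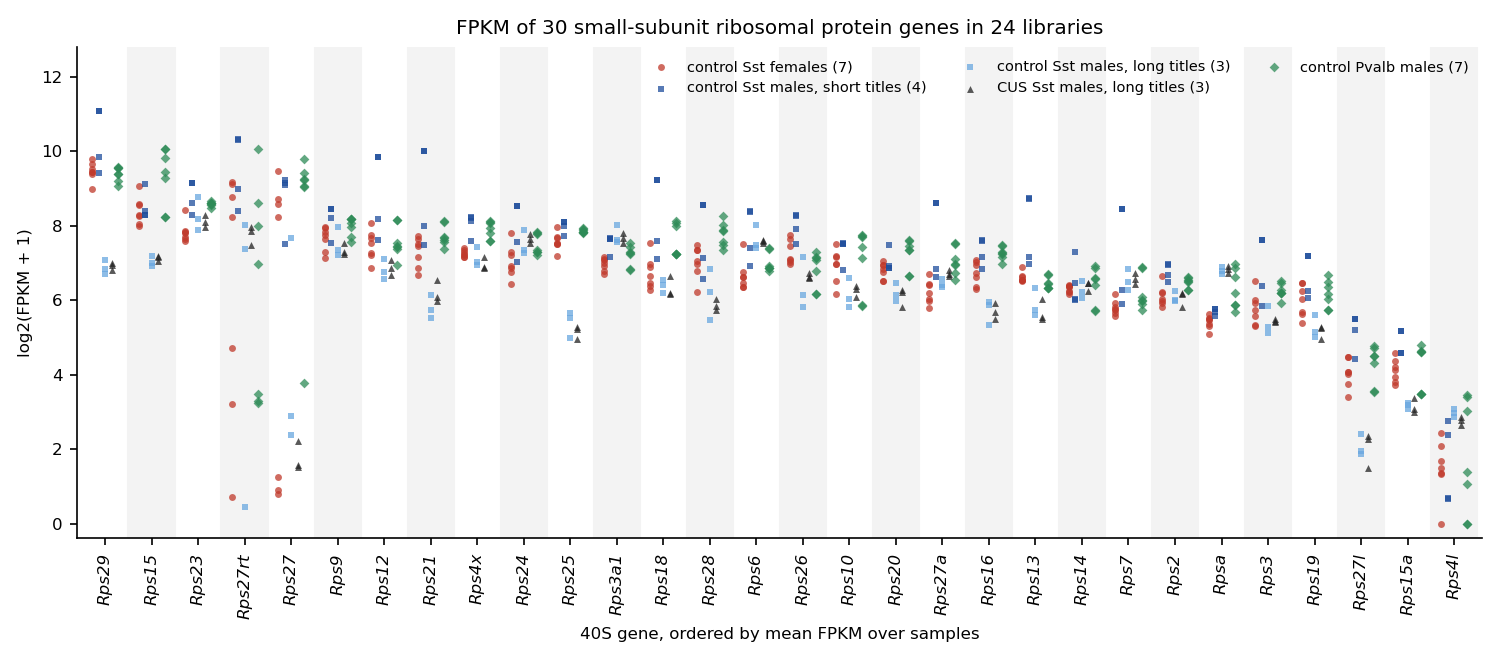
Levels of 30 of the 34 small-subunit genes, as log2(FPKM + 1) on the y axis, in each of the 24 libraries (points, by group and kind of title), with genes ordered along the x axis by mean FPKM. Rps29 is highest and Rps4l lowest, and for Rps27 and Rps27rt single libraries fall below 20 and 30 FPKM.

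The rows of Rps27 and Rps27rt moved against each other from library to library. In the female Sst libraries Rps27 was at 711 FPKM in SST-F, 423 in SST1-F, 299 in SST2-F and 383 in SST4-F, but at 1.37 in SST3-F, 0.857 in SST5-F and 0.729 in SST6-F. Rps27rt was at 25.3, 8.20, 299 and 0.630 FPKM in the first 4 of these and at 437, 578 and 554 in the other 3. Wherever 1 row was low the other was high, within a group that the labels do not divide. The sum of the rows ranged in the females from 383 to 737 FPKM, a ratio of 1.92, against ratios of 976 for Rps27 and 918 for Rps27rt alone. Over the 24 libraries Rps27 was under 20 FPKM in 9 and Rps27rt under 30 FPKM in 7, both rows were low in 0 and both above these limits in 8. In the Pvalb libraries PV1-M stood alone, with Rps27 at 12.82 FPKM and Rps27rt at 1070, while PV5-M had 884 and 8.45. The SD over samples on the log2 scale was 3.59 for Rps27 and 2.89 for Rps27rt, and 0.94 for their sum. The sum is therefore given beside the rows in each comparison.

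**Figure D2:**
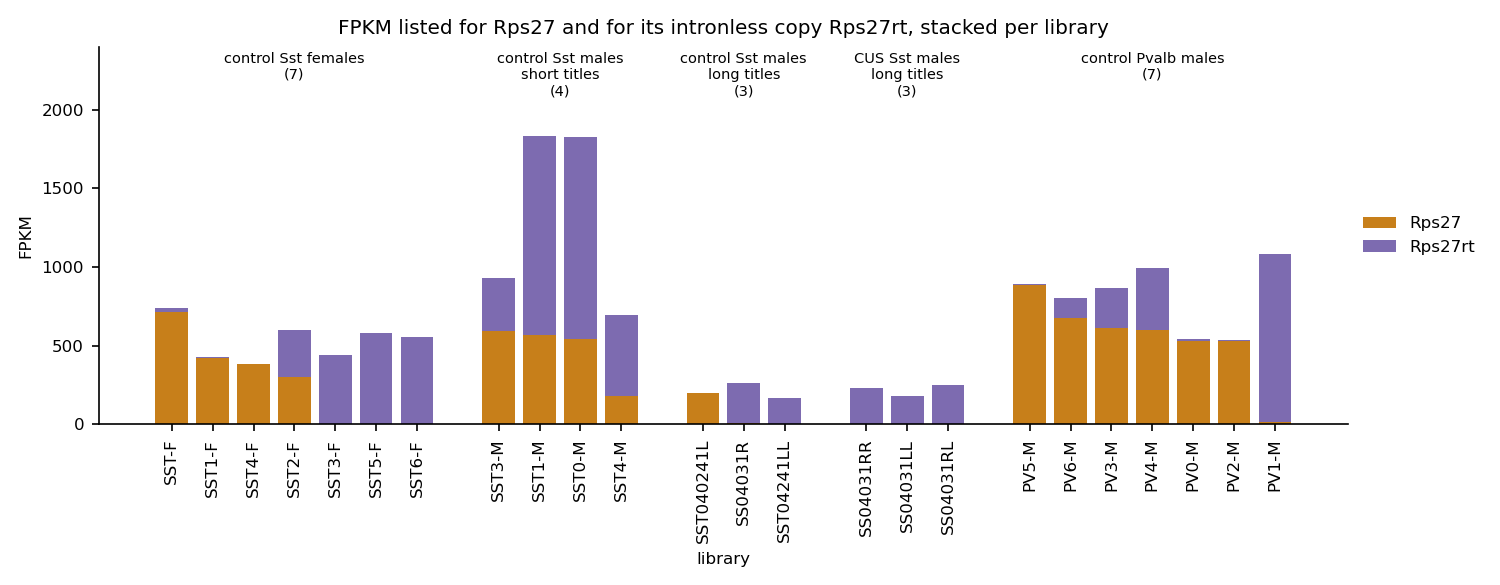
FPKM listed for Rps27 (orange) and Rps27rt (purple), stacked per library (x axis) with libraries grouped by condition and kind of title. Within the females the sum lies between 383 and 737 FPKM although either row can be near 0, and the sum is between 170 and 263 FPKM in the long-titled controls and CUS libraries.

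The question of how female and male libraries labelled Sst differ was addressed with the 7 female and 6 male nonstressed samples. All differences are on the log2(FPKM + 1) scale and were tested with limma over 14498 genes, with Benjamini-Hochberg adjustment over all of them and a threshold of 0.05. In females 4 members were lower and 0 were higher, while 5.44% of all genes tested were lower. Rps3a1, Rps6 and Rpsa, which belong to the body and platform, were among them. The median over the 34 members was -0.17, against 0.07 over all genes tested, with 21 members negative and 13 positive.

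Rps3a1, which faces the mRNA exit, was at 102 to 142 FPKM in the females (median 126) and at 141 to 258 in the males (median 197). Its groups overlapped between 141 and 142 FPKM, and it was lower in females by -0.65 ± 0.17 (SE; adjusted p = 0.0296, limma). Rps6, the protein phosphorylated by the S6 kinases downstream of mTOR, was at 81.4 to 180 FPKM in the females (median 97.3) and 120 to 333 in the males (median 173). SST-F alone, at 180 FPKM, reached into the male range, and the difference was -0.94 ± 0.25 (adjusted p = 0.0320, limma). Rpsa, the protein also known as the laminin receptor precursor, was at 32.9 to 48.2 FPKM in the females (median 43.3) and 47.0 to 118 in the males (median 78.6). Its male values fell into separate ranges, 47.0 to 53.6 FPKM with short titles and 104 to 118 with long ones, and the difference was -0.83 ± 0.24 (adjusted p = 0.0393, limma). The other members with the most negative estimates were Rps27 (-1.04 ± 2.0), Rps27rt (-0.98 ± 1.86) and Rps4l (-0.96 ± 0.42), whose adjusted p were 0.753, 0.749 and 0.138 (limma). For Rps27 and Rps27rt summed the estimate was 0.15 ± 0.48. The most positive estimates were those of Rps29 (0.97 ± 0.62), Rps25 (0.92 ± 0.48) and Rps15 (0.57 ± 0.35), none past the threshold.

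The male samples differed among themselves by the kind of title, and the comparison was therefore repeated against each kind. Against the 3 short-titled male samples, all 34 members had negative estimates in females, with a median of -0.67 (all genes 0.05, 60S genes -0.64). Of the members 1 passed the threshold, Rps4x at -0.73 ± 0.17 (adjusted p = 0.0438, limma), where 1.66% of all genes were lower. Against the 3 long-titled samples, 16 members were higher in females, where 22.4% of all genes were higher, and 6 were lower, where 19.1% were. The median was then 0.63 (all genes 0.09). The 6 lower members included Rpsa, Rps4l, Rps6, Rps3a1 and Rps7, and the 4 members of the whole comparison are among them. The largest rises were those of Rps29 (2.59 ± 0.19), Rps25 (2.20 ± 0.19) and Rps27l (1.97 ± 0.23). In the head 10 of 14 members were higher and 1 lower, and in the body and platform 5 of 17 were higher and 4 lower. With the kind of title as a covariate, 0 members passed the threshold and 228 genes did (unadjusted p below 0.05 in 19 members). The count of 4 also rested on single libraries. It was 0 without any one of SST1-F, SST2-F, SST3-F, SST4-F, SST6-F, SS04031R or SST04241LL, 1 without SST5-F and 2 without SST040241L. Without the pair SST0-M and SST1-M it was 7, with 6 lower and 1 higher in females. In the fits that leave out 1 sample 667 to 3552 of all genes passed. In the fits with a count of 0, 6 to 8 members had an unadjusted p below 0.05. The estimates of the 4 members kept their sign throughout, between -0.57 and -0.74 for Rps3a1 and between -0.78 and -1.07 for Rps6.

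**Figure D3:**
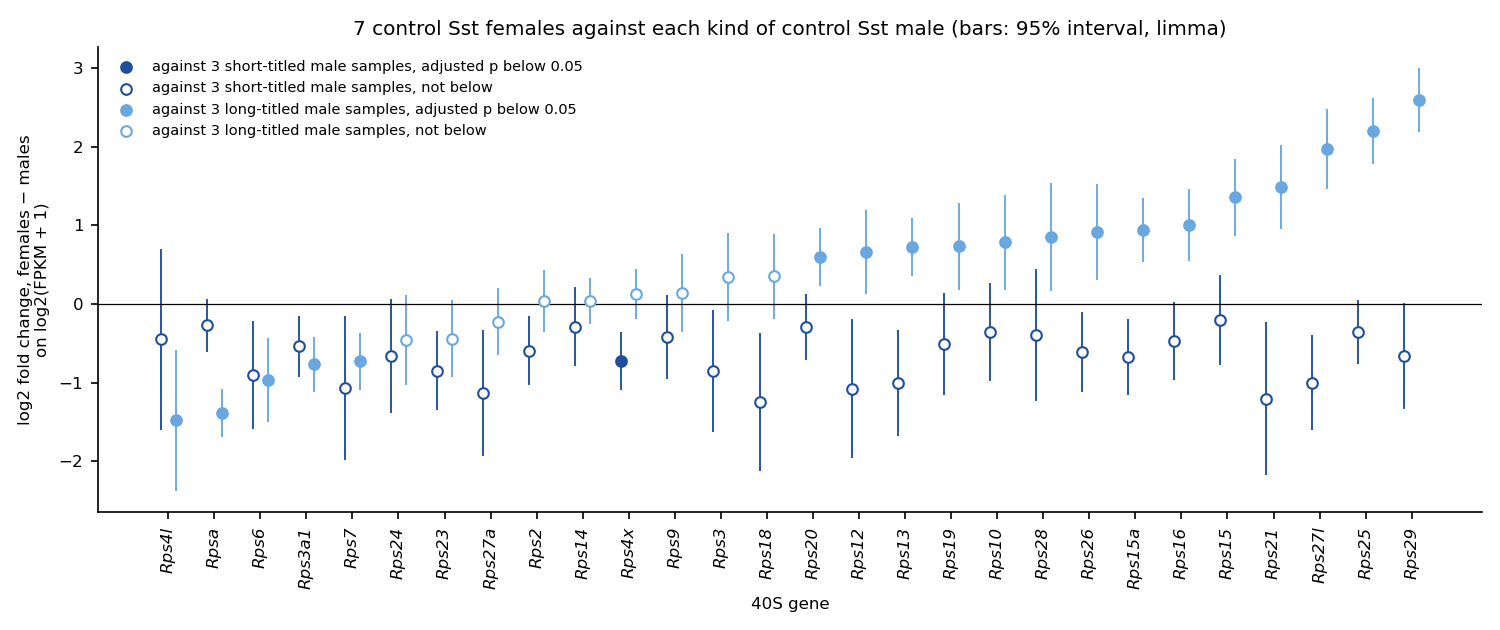
Log2 fold change of 28 of the 34 members (x axis) in the 7 female Sst controls against the 3 short-titled (dark) and the 3 long-titled (light) male Sst control samples; bars are 95% limma intervals and filled points have an adjusted p below 0.05. Against the short-titled males every estimate drawn is negative, whereas against the long-titled males the estimates run from -1.48 for Rps4l to 2.59 for Rps29.

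**Figure D4:**
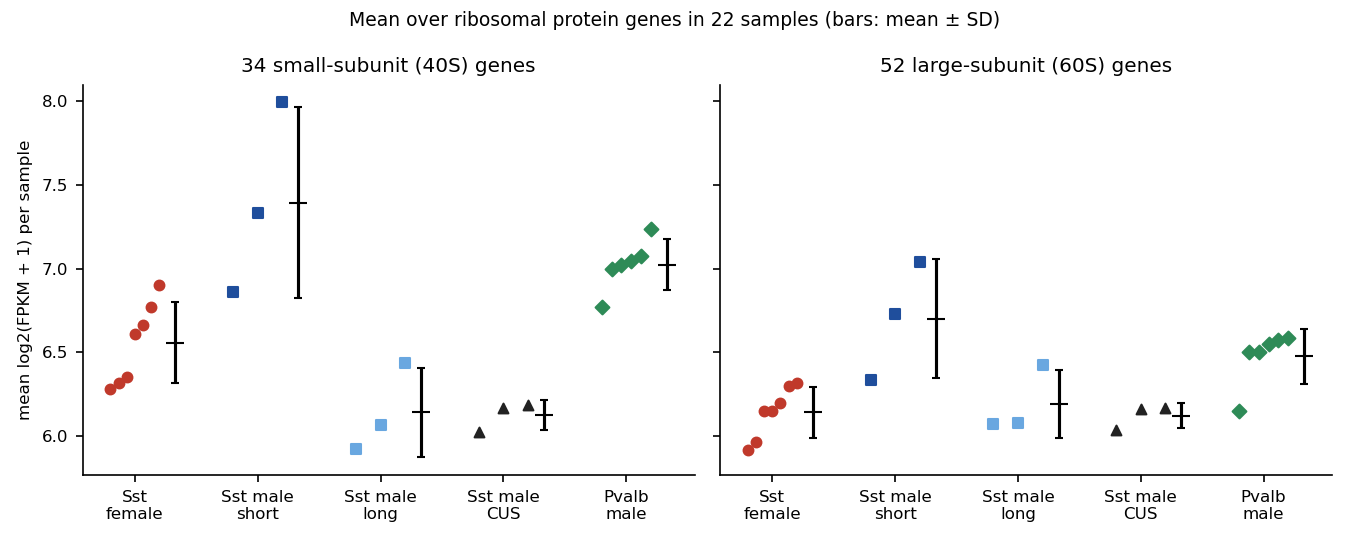
Mean of log2(FPKM + 1) over the 34 small-subunit genes (left) and the 52 large-subunit genes (right) in each of the 22 samples, by group and kind of title, with the mean ± SD of each set. On the left the 3 short-titled male Sst samples lie between 6.86 and 7.99, the females between 6.28 and 6.90, and the 6 long-titled samples between 5.92 and 6.44.

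Sst and Pvalb controls were compared to see how the lines differ, with 13 Sst and 6 Pvalb samples. Of the members, 1 was lower in the libraries labelled Sst and 0 were higher, where 4.50% of 14524 genes were lower. This was Rps15, a head protein close to the decoding site, which was at 121 to 559 FPKM in the Sst samples (median 312) and at 300.4 to 1066 in the Pvalb samples (median 795). The ranges overlapped, and the difference was -1.35 ± 0.33 (adjusted p = 0.0167, limma). The other members at the ends were not past the threshold. They were Rps27 (-2.52 ± 1.59) and Rps28 (-0.83 ± 0.31, adjusted p = 0.0955, limma) on the lower side and Rps26 (0.28 ± 0.29) and Rps13 (0.26 ± 0.30) on the higher side. For the sum of Rps27 and Rps27rt the estimate was -0.77 ± 0.37 (adjusted p = 0.199, limma). The median of the members was -0.32 (all genes 0.00), and 27 of 34 were negative.

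Within the Pvalb group the 3 libraries with high Xist did not overlap the other 3 samples in 9 members that were higher, where 21.4% of all genes were so, and in 3 that were lower, where 20.5% were. The other 22 members overlapped, as did the mean over the 34. Rps15 was at 902, 1064 and 1066 FPKM in the 3 libraries with high Xist (PV1-M, PV4-M, PV5-M) and at 300.4, 619 and 689 FPKM in the other 3 samples. Rpsa was at 97.1 to 124 FPKM against 50.6 to 71.7, Rps18 at 252 to 279 against 149 to 151, and Rps4l at 7.09 to 10.0 against 0 to 1.60. Rps15a went the other way, at 10.2 to 10.3 against 23.3 to 26.9 FPKM. These 5 were picked from the 12 members without overlap after their values were seen. Without the 3 libraries with high Xist, Rps15 was at -0.85 and 0 members and 14 genes of 14519 passed (unadjusted p below 0.05 in 0 members). The count was also 0 without any one of these libraries, 3 without the pair PV0-M and PV2-M, 3 without SST3-M and 7 without the pair SST0-M and SST1-M. Of all genes, 389 to 428 passed without 1 of the libraries with high Xist. In the other fits 2130, 1304 and 1910 passed, against 1133 in the main fit. With the 6 male Sst samples alone, 1 member was lower, where 2.15% of all genes were, with a median of -0.14 and 11 of 34 members positive. With the 7 females alone on the Sst side, where sex and line differ together by the labels, 11 members were lower and 0 higher, where 12.2% of all genes were lower. Among them were Rps4x (-0.68 ± 0.11), Rps23 (-0.75 ± 0.13) and Rpsa (-0.96 ± 0.20), with adjusted p of 0.000774, 0.00122 and 0.00347 (limma). This comparison and that of the sexes share the 7 female libraries.

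The difference after 14 days of CUS was asked in male libraries labelled Sst, with 3 CUS and 6 control samples. Of the 34 members 0 passed the threshold, as did 1 of 14319 genes (0.00698%), and at an unadjusted p below 0.05 it was 1 of the members, the Rps27 row, and 1070 genes. The median of the members was -0.56 (all genes 0.02), with 28 negative. The most negative were Rps27 (-4.69 ± 1.65), Rps29 (-1.57 ± 0.93) and Rps27l (-1.52 ± 0.85), and the most positive were Rpsa (0.58 ± 0.36), Rps27rt (0.50 ± 1.87) and Rps4l (0.32 ± 0.49), with adjusted p from 0.641 to 0.920 (limma). The Rps27 row was at 1.97, 1.87 and 3.68 FPKM in the CUS samples and at 4.23 FPKM or more in the controls. Its sum with Rps27rt was at 180 to 249 FPKM in CUS and differed from the controls by -1.10 ± 0.70 (adjusted p = 0.643, limma).

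The result depended on the kind of control. Against the 3 short-titled control samples 14 members were lower in CUS, where 7.67% of all genes were lower, and 1 was higher, where 8.45% were. The member with the smallest adjusted p (0.00151, limma) was Rps25, at 30.1, 36.2 and 37.7 FPKM in CUS and 210, 251 and 275 in these controls, and Rpsa was the higher one, at 105, 112 and 119 FPKM against 47.0, 50.4 and 53.6. Oligodendrocyte markers summed to 1459 to 1802 FPKM in CUS and 380 to 1193 in the short-titled control libraries, endothelial markers to 103 to 169 and 18.5 to 69.4, and microglia markers to 2444 to 2832 and 4633 to 7487. None of these sums overlapped. In the long-titled control libraries the oligodendrocyte markers summed to 345 to 1166 FPKM, endothelial markers to 15.99 to 91.3 and microglia markers to 3056 to 6689. The CUS libraries did not overlap these sums either. The part of the marker sums in the results against either kind of control was not tested. Against the 3 long-titled controls, which share their kind of title with the CUS libraries, 0 members and 1 of 14186 genes (0.00705%) passed (unadjusted p below 0.05 in 0 members), and the median of the members was -0.03 (all genes 0.00), with 20 negative and 14 positive. Head members then lay between -0.31 and 0.27. Rps25 was at 30.8, 45.2 and 49.1 FPKM in those controls, and Rpsa at 104, 109 and 118, so the CUS samples overlapped them for both genes.

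The long-titled and short-titled male controls, which the labels place in the same group, were set against each other because the split touches every comparison above. With 3 samples on each side, 5 members were lower in the long-titled samples and 0 higher, where 2.30% of 14230 genes were lower. Rps29 was at 102, 113 and 134 FPKM against 687, 921 and 2166 (-3.25 ± 0.46, adjusted p = 0.0170, limma). Rps27l, which is known as a target of p53, was at 2.67, 2.84 and 4.25 FPKM against 20.5, 35.5 and 44.2 (-2.97 ± 0.36, adjusted p = 0.0105, limma). Rps25 (head) was at 30.8 to 49.1 FPKM against 210 to 275 (-2.55 ± 0.30, adjusted p = 0.0105, limma). For these 3 genes the lowest short-titled sample was several times the highest long-titled one. Rps15a was at 7.39 to 8.51 FPKM against 22.9 to 35.2 (-1.61 ± 0.28, adjusted p = 0.0264, limma), and Rps15 at 121 to 144 FPKM against 312 to 559 (-1.57 ± 0.33, adjusted p = 0.0456, limma). The summed Rps27 and Rps27rt rows were lower by -2.34 ± 0.43 (adjusted p = 0.0315, limma), although neither row passed by itself (Rps27 -4.31, Rps27rt -3.96).

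The samples did not overlap in 20 members that were lower, where 17.0% of all genes were so, and in 2 that were higher, where 16.4% were. Those 2 were Rpsa, at 104 to 118 FPKM against 47.0 to 53.6 (1.12 ± 0.25, adjusted p = 0.0509, limma), and Rps4l (1.03 ± 0.56). Rps3a1 and Rps6 had estimates of 0.23 and 0.07. The median of the members was -1.20 (all genes 0.00). The summed FPKM of the 34 members ranged from 3153 to 4500 in the long-titled controls and from 5390.5 to 14451 in the short-titled ones. The near-identical pair SST0-M and SST1-M had the highest sums, and the interneuron markers summed to 34.1 to 91.6 FPKM in the long-titled and 102 to 296 in the short-titled control libraries. The part of these in the result was not tested. The count of 5 was 10 (9 lower and 1 higher) without the pair SST0-M and SST1-M, 3 without SST4-M, 2 without SS04031R, 1 without SST040241L or SST04241LL and 0 without SST3-M. Of all genes, 1962, 138, 149, 54 or 57, and 76 passed in these fits, against 585 in the main fit.

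The size of this difference went with the length of the members' coding sequences, which run from 171 bases in Rps29 to 888 in Rpsa. Without Rps27 and Rps27rt, the 10 members under 400 bases had a median of -1.67 and were all negative, the 13 members of 400 to 600 bases had a median of -1.14 with 12 negative, and the 9 members over 600 bases had a median of -0.63 with 5 negative. The other genes tested had medians of -0.49, -0.33 and 0.06 in these classes, and the 60S genes -0.68, -0.68 and -0.14. Spearman's rho between coding length and difference was 0.63 over the 32 members and 0.23 over 12459 other genes. In the comparison of females with all males it was -0.64 over the members and -0.07 over the other genes, and in that of CUS with all controls 0.58 and 0.19, while for Sst against Pvalb it was 0.15 and 0.08. These are correlations across genes of the same libraries, which are not independent replicates, and the comparisons share samples.

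**Figure D5:**
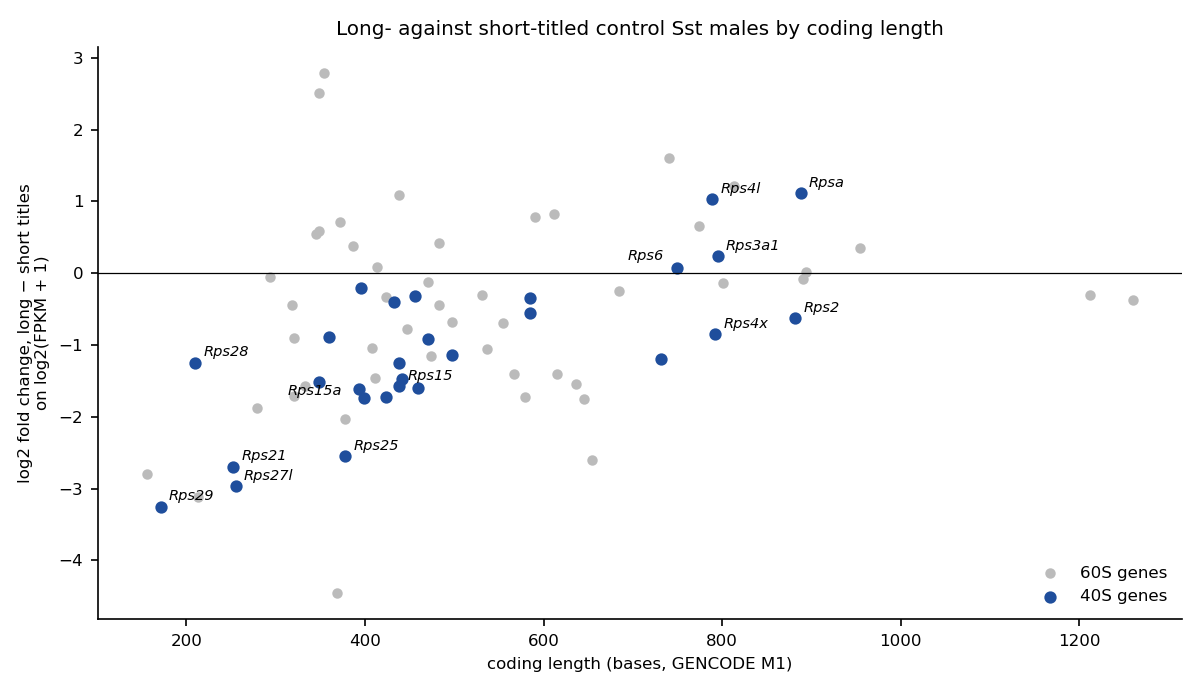
Log2 fold change between long-titled and short-titled male Sst controls (y axis) against coding length in bases (x axis) for 28 of the 32 small-subunit genes behind the correlation (blue; the other 4 are not drawn, so the points look somewhat closer to a line than all 32 do) and the 60S genes (grey). Rps29, the shortest member at 171 bases, is at -3.25 and Rpsa, the longest at 888 bases, is at 1.12.

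Members with snoRNA genes in their introns were followed because the share of snoRNA differs so far between the libraries. In the annotation 10 members, among them Rps2, Rps3, Rps3a1, Rps12, Rps13, Rps16, Rps20 and Rpsa, contain 19 such genes, of which 13 have a row. Between the kinds of title, the hosts had a median difference of -1.04 and the 24 other members one of -1.25. Of the 13 guests with a row, 5 were higher in every long-titled than in every short-titled control library, 3 overlapped and 5 were listed at 0 in all male controls. Snora33, inside Rps12, was at 555 to 1534 FPKM in the long-titled controls and 426 to 1512 in the short-titled ones. Snord15b, the guest with the highest FPKM in the male controls, inside Rps3, was at 71881 to 125375 FPKM in the long-titled controls and 49.1 to 128 in the short-titled ones, while the host Rps3 was at 33.7 to 56.8 FPKM against 56.7 to 197, ranges that just overlap. FPKM of such short genes is an unstable estimate, and 3 of the 13 guests were listed at 0 in all 24 libraries.

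The proteins that complete or act on the 40S subunit were read in the same fits. Fau, which encodes the 40S protein eS30, was at 175 ± 35.6 FPKM in females and 248 ± 89.8 in males (SD, n = 7 and 6), a difference of -0.45 ± 0.23 (adjusted p = 0.206, limma). Gnb2l1, the scaffold protein RACK1 of the head, had estimates between -0.44 and 0.27 in the 4 comparisons, and neither gene passed in any. The S6 kinases Rps6kb1 and Rps6kb2, which phosphorylate Rps6, did not pass in any of the 4 either. Of 38 factors of 40S assembly, 36 were tested. In females 3 were lower than in males, Nop58 (-0.72 ± 0.21), Mphosph10 (-0.62 ± 0.19) and Utp3 (-0.99 ± 0.27), and 2 were higher in the libraries labelled Sst than in those labelled Pvalb, Pno1 (1.23 ± 0.31) and Utp6 (0.52 ± 0.15). Of all genes, 5.44% were lower in females and 3.30% were higher in the Sst libraries. With CUS 0 passed. Between the kinds of title Emg1 was lower in long-titled samples (-2.37 ± 0.48, adjusted p = 0.0426, limma), where 2.30% of all genes were lower. The factors were not read against each kind of male title or without single samples, where the count of 40S genes moved.

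The large subunit served as the nearest comparison. Of the 52 genes of the 60S subunit, 50 were tested in the comparison of the sexes, 7 were lower in females and 0 higher, where 5.44% of all genes were lower (with the title covariate 228 of all genes passed in either direction), and their median of -0.26 was set beside -0.17 for the 40S genes. Against the short-titled males only, the medians were -0.64 for the 60S genes and -0.67 for the 40S genes. Against the long-titled males only, they were 0.01 and 0.63. Between the kinds of title the medians were -0.38 over 49 tested 60S genes and -1.20 over the 40S genes. The mean of log2(FPKM + 1) over the 40S genes minus that over the 60S genes was 0.53 to 0.95 in the short-titled male Sst libraries, -0.15 to 0.02 in the long-titled controls, -0.01 to 0.02 in the CUS libraries, 0.20 to 0.62 in the females and 0.43 to 0.73 in the Pvalb libraries. The 6 long-titled libraries thus lay below the 18 others in the balance of the 2 lists, by values that do not overlap.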

How the data were processed

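The deposited table holds FPKM per gene and library as the authors made them. Per the study's methods, paired-end reads of 75 bases were trimmed, aligned with HISAT2 to mm10 and quantified with StringTie, next to a sentence that names TopHat2 and mm9. The submitters' processing notes name TopHat2, Cufflinks, Cuffdiff and mm10, and the sources used here do not say if the ComBat step of the methods reached this table. Read depth is unknown, so no counting error could be given, and totals of FPKM do not stand for depth.

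Values were tested on log2(FPKM + 1) with limma 3.58.1 (R 4.3.3, trend and robust settings) over genes with a mean above 0.4 FPKM in the samples compared, two-sided, with Benjamini-Hochberg adjustment and a threshold of 0.05. Tables and figures were made with Python 3.11.15, pandas 2.3.3, scipy 1.17.1 and matplotlib 3.10.9. Samples were grouped by the sex, interneuron subtype and stress labels, and 6 of 30 labelled samples were not analysed here. Near-identical libraries were averaged. The members, gene lists and comparisons were chosen with earlier results of these data known. All members were counted; those named are the 3 largest and 3 smallest changes and the 3 highest and 3 lowest levels, members past the threshold (the 6 smallest adjusted p where more passed), hosts of snoRNA genes and a few fixed members. Rps7, Rps18 and Rps23 were named where their values were seen to stand out. Some members enter every fit and count but are not reported here by themselves or drawn in the plots of single genes.

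On simulated data with 200 changed genes, log2 changes of 2 were recovered in 85%, 93%, 48% and 12% of genes for the comparisons of sex, line, CUS and title, and log2 changes of 1, nearer the size of most estimates here, in 51%, 66%, 12% and 0%. In the data 1699, 1133, 1 and 585 genes passed, so the simulated setting differs and these shares need not hold there. Alternatives were another pseudocount, filter, scaling or subset of samples, a title covariate, a replicate block, summed Rps27 rows and leaving out each sample. Coordinates are GRCm38 (RefSeq GRCm38.p6), the same build as mm10. Coding sequences and their windows were read from GENCODE M1 on NCBIM37, an older assembly, and no coordinates of it are given.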

Additional observations from a re-analysis of the deposited data

Results flagged for a closer look

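Of 69 tests (22 named members and the member mean in the 3 groups of 4 to 10 samples), 12 found the highest or lowest sample apart from the rest by Dixon's 95% limit, where chance flags about 1 in 20 groups. In the Pvalb group 5 of them fell on the averaged pair PV0-M and PV2-M. This sample was highest for Rps13 at 102 FPKM and Rps6 at 167 FPKM, and lowest for Rps2 at 76.1 FPKM, Rps20 at 100.3 FPKM and Rps27l at 10.8 FPKM. PV1-M was lowest for Rps27 at 12.82 FPKM, where the library has 1070 FPKM on Rps27rt. Among the male Sst controls the mean of SST1-M and SST0-M was highest for Rps27a at 387 FPKM and lowest for Rps4l at 0.595 FPKM. SST040241L was lowest for Rps27rt at 0.366 FPKM, with 202 FPKM on Rps27. In the females SST-F was highest for Rps6 at 180.2 FPKM and Rps23 at 344 FPKM, and SST3-F was highest for Rps13 at 118 FPKM.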

How the results depend on the processing

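For the sexes, the lines and CUS the counts of members past the threshold depended more on the samples than on the scale. For the titles both moved the count. For females against males the count of 4 became 2 with quantile normalization, 1 with a common total without snoRNA and scaRNA, 1 with short-titled and 22 with long-titled males only, and 0 with titles as a covariate. The 4 were all lower in females, whereas of the 22 there were 16 higher and 6 lower. The median over members was 0.63 with long-titled males only. Scaling to the common total moved the median of all genes from 0.07 to 0.26 and that of the members from -0.17 to 0.08. For Sst against Pvalb the count of 1 became 11 with females only, 2 with short-titled Sst samples only, 0 without the Pvalb libraries with high Xist and 2 with the title covariate. The totals over all genes were 1133 in the main fit and 3638, 1478, 14 and 1596 in these fits. For CUS the count of 0 became 15 (14 lower and 1 higher) with short-titled controls only, while the total over all genes went from 1 to 2309. For long against short titles the count of 5 became 8 with quantile normalization, 12 with the common total and 14 with near-identical libraries kept apart. The 5 were all lower in long-titled samples, and each of the other counts held 1 member that was higher. Here the totals over all genes were 585 in the main fit and 1110, 727 and 1769 in these fits. The cause was not tested.

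Leaving out 1 sample at a time gave counts in either direction of 0 to 7 for the sexes, 0 to 7 for the lines, 0 throughout for CUS and 0 to 10 for the titles. The medians were -0.36 to 0.03, -0.45 to -0.24, -0.73 to -0.34 and -1.48 to -0.93. Of all genes, 667 to 3552, 389 to 2130, 1 to 3 and 54 to 1962 passed in these fits. No called member changed sign under the alternatives run.

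Sst and Pvalb or female and male libraries share numbers in their titles, which nothing in the sources says pair them, and the correlation of same-numbered deviations was -0.07 to 0.03 over 3 pairs and -0.05 to 0.11 over 9 pairs. A replicate block gave 0 members and a median of -0.91 for the sexes and 2 members for the lines, and the same samples with no block, a choice made after seeing the data, gave 0, -0.91 and 2. Of all genes, 11 (sexes) and 1190 (lines) passed with the block and 24 and 1655 with no block.

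Depth is unknown. With 3 samples on a side the comparison of titles recovered 12% of simulated log2 changes of 2, so members that missed the threshold there may still differ.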

Other observations

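Among the 3 members of lowest level, Rps15a and Rps4l differed in opposite directions between the Pvalb samples with high Xist and the others, while Rps27l overlapped (18.9 to 21.5 against 10.8 to 26.2 FPKM). Rps15a averaged 10.2 ± 0.0575 FPKM in the 3 libraries with high Xist and 24.8 ± 1.91 FPKM in the other 3 samples (SD), and Rps4l 8.91 ± 1.59 against 0.896 ± 0.816 FPKM. Rps24, known for its role in pre-rRNA processing, averaged 223 ± 5.13 against 155 ± 6.55 FPKM. Rps15a, Rps4l and Rps24 were picked after their values were seen and were not tested. Of the 34 members, 9 were higher without overlap in the samples with high Xist, where 21.4% of all genes were so. A further 3 were lower without overlap, where 20.5% of all genes were.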
